A study of Mus musculus with 6 samples.

Results

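The genes described here were the Notch receptors Notch1, Notch2 and Notch3, the Notch ligands Dll1, Dll3, Dll4, Jag1 and Jag2, the nuclear effector Rbpj and the inhibitor Numb. They were taken from the gene tables by exact match of the gene symbol, which found 10 of 10 names among 23038 genes. RNA was measured in mOPCs, mouse primary oligodendrocyte precursor cells, in 6 libraries. In 3 libraries the cells had been transfected with control siRNA (siNC), and in 3 with an siRNA for Qk (siQk), the gene of the RNA-binding protein Quaking, and the comparison asks which transcripts differ once Qk is knocked down. The cells were purified by immunopanning from mouse embryos and collected 72 h after transfection, without any other treatment or allele named in the sources used here. The paper describes independent biological replicates and 3 different Qk siRNAs, and neither it nor the labels state which library received which. The group siQk therefore joins knockdown with different siRNAs and is compared with control siRNA only, so that effects of the siRNAs other than that on Qk cannot be told apart from the knockdown.

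Notch receptors are membrane proteins that are cleaved when a ligand on a neighbouring cell binds them. Cleavage by an ADAM protease and then by gamma-secretase frees the intracellular domain, which enters the nucleus and, together with the DNA-binding protein Rbpj and a Mastermind coactivator, switches on target genes such as those of the Hes and Hey repressors. Dll1, Dll4, Jag1 and Jag2 can activate receptors on neighbouring cells, whereas Dll3 is held largely inside the cell and is known to dampen the signal of the cell that makes it. In the oligodendrocyte lineage, Notch1 signalling through Jag1 and Hes5 is known for holding precursors back from differentiation into myelinating oligodendrocytes (OLs).

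Library totals ranged from 58166490 to 141045937 tags, the deposited estimated read counts per gene. The library with the smallest total, siNC replicate 1, had 3.11% of its tags on the gene Rn45s, against at most 0.389% in any other library. RPKM, in which tags are scaled by exon length and by library total, is used below for levels, since it can be compared between genes. Fold changes are siQk over siNC from edgeR's quasi-likelihood test on the tag numbers with TMM scaling between libraries, over 12505 genes with an average logCPM above 0. RPKM carries no such scaling unless called TMM-scaled, so a ratio of mean RPKM can differ from the fold change printed beside it. Called genes are those with P below 0.01 whose FDR, adjusted after Benjamini and Hochberg, was also below 0.1. Of all genes tested, 31.0% were called, 13.8% higher and 17.2% lower, and counts of calls below are to be read beside these shares. Qk itself stood at 209, 206 and 163 RPKM in the siNC libraries and at 51.3, 76.6 and 36.2 RPKM in the siQk libraries. All siQk libraries lay below all siNC libraries, with a log2 fold change of -1.98 (SE 0.28, FDR 0.00311 from edgeR's quasi-likelihood test).

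Marker genes were used to check the label of the cells. All 10 OPC markers were above 1 RPKM in every library, from Olig1 with means of 268 RPKM in siNC and 402 RPKM in siQk down to Cspg4 with 2.17 and 4.58 RPKM. The summed level of these 10 genes was 1055 to 1132 RPKM in siNC and 1277 to 1440 RPKM in siQk, with 4 called higher and 1 called lower. These sums are of RPKM not divided by TMM factors. With factors of 0.899 to 0.987 in siNC and 1.04 to 1.07 in siQk, dividing brings the ranges together until they overlap. Markers of myelinating OLs moved with the groups: 8 of 10 were called lower, and their sum was 3367 to 5918 RPKM in siNC and 1412 to 2146 RPKM in siQk. Mal had the lowest level among them, with means of 1.39 RPKM in siNC and 0.0552 RPKM in siQk. Of 8 astrocyte markers, 4 of 6 tested were called lower, the sum was 207 to 306 RPKM in siNC and 179 to 207 RPKM in siQk, S100b was the highest, and Gjb6 was listed at 0 in 5 of 6 libraries. Of 8 neuron markers, 1 of 6 tested was called, Snap25, which is named after its values were seen. Its mean rose from 0.751 to 5.18 RPKM, and its fold change with TMM scaling was 6.23. At P below 0.05 there were 3 neuron markers higher and 0 lower, DESeq2's Wald test called 3 higher, and the 6 had a median log2 fold change of 0.53. Their sum was 105 to 180 RPKM in siNC and 88.6 to 127 RPKM in siQk, most of it from Tubb3, whose own change was not called, and Slc17a6 was listed at 0 in every library. Summed microglia markers were 0.734 to 3.32 RPKM in siNC and 0.337 to 0.413 RPKM in siQk, and P2ry12, the only one tested, was called lower (log2 fold change -3.16, FDR 0.00886 from edgeR's quasi-likelihood test), while C1qa was listed at 0 in every library. Endothelial markers summed to at most 5.14 RPKM, mostly Kdr, and mural and fibroblast markers to at most 2.01 RPKM, mostly Tagln, with Cldn5 listed at 0 in every library and Col1a2 in 3. In these bulk libraries a smaller share of cells of a type and less RNA per cell cannot be told apart. The part of the OL, astrocyte, neuron and microglia markers in the results below was not tested.

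Sequences before the transcription starts are given for Hes5 and Nrarp and, as short stretches around a match, for Rbpj, Hey2 and 3 ligand genes whatever their change, since the known route from receptor to target runs through binding of Rbpj to DNA. They come from RefSeq on GRCm38.p6, where all 10 genes matched, with 14 starts. No window of the target genes Hes1 or Hey1 was among these sequences, so neither gene was searched. Letters searched were TGGGAA, the core of the Rbpj motif, read on either strand and so also as TTCCCA, and CAGCTG, an E-box with a GC centre, a sequence bound by basic helix-loop-helix factors, which reads the same on both strands. The 2 can share a pair of bases, which occurred in none of the stretches shown. Over 250 bases before the start, TGGGAA was found in 21.6% and CAGCTG in 13.0% of all 32851 RefSeq promoters. The whole window is shown for Hes5 (chr4:154960673-154960922, plus strand) and Nrarp (chr2:25180508-25180757, plus strand), the pair of target genes that were called higher by most. Capitals mark TGGGAA or its reverse complement, whose first base lies 226 and 82 bases before the Hes5 start.
Hes5: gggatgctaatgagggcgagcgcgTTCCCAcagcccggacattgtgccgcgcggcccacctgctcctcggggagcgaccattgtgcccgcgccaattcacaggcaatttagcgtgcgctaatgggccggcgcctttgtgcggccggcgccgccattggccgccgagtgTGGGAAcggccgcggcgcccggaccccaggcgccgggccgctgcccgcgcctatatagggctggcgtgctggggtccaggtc
Nrarp: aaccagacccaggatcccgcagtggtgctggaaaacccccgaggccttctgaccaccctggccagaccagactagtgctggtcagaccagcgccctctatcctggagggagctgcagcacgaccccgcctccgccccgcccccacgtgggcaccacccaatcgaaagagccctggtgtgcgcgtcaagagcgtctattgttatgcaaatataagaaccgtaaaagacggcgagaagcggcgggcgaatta
The Hes5 window held 2 matches and the Nrarp window none, which says only that these letters were absent from this window.

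Among the 10 genes, Rbpj alone had the core of its own motif before a start, at chr5:53590185-53590214 and chr5:53590269-53590298 on the plus strand. The matches begin 149 and 65 bases before the upstream of its 2 RefSeq starts and are shown in capitals within 30 bases.
Rbpj first: aatgaaaaaggcTGGGAAcccgcggcgagc
Rbpj second: gacgctcgcattTTCCCAggacccctcctc
Hey2, a target whose level is given below, had 1 such match at chr10:30842973-30843002 on the minus strand.
Hey2: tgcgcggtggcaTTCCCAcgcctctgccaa
CAGCTG lay before a start of 3 ligand genes. These were Dll1 (chr17:15377047-15377076), Dll3 (chr7:28301786-28301804) and Jag1 (chr2:137116585-137116614), all on the minus strand, with the match in capitals.
Dll1: tgcattaccataCAGCTGagcgcacaaaga
Dll3: tccggcatccagCAGCTGc
Jag1: ccgcgtttcatgCAGCTGatctgaaaggga
The Dll1 match stands 132 bases before the upstream of its 2 RefSeq starts, which no GENCODE M21 transcript of Dll1 shares, and the Dll3 match 7 bases before its start. That Dll1 window lies wholly in an exon of the lincRNA gene A930024N18Rik on the opposite strand. The window of the other Dll1 start held no match. The matches of Dll3, Jag1 and Rbpj lie inside the span that GENCODE M21 gives the gene, whose most upstream start is further out, and the whole Dll3 window lies in an annotated Dll3 exon. A match describes the letters and does not show that a factor binds there.

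The genes called changed were all ligands. Dll1 and Dll3, the delta-like ligands, rose 2.93-fold and 3.62-fold in siQk, and Jag2 rose 1.79-fold, while Jag1 and the receptors Notch1, Notch2 and Notch3 were not called. Of the 9 genes that could be tested, 3 were called higher, none was called lower by edgeR's quasi-likelihood test, and 6 were not called. Over all 12505 genes tested, 31.0% were called, 13.8% higher and 17.2% lower, so that the share of 33.3% among these genes was close to that of all genes. Without the FDR and at an unadjusted P below 0.05, 1 gene, Numb, counted as lower, and DESeq2's Wald test called no gene lower either.

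**Figure D1:**
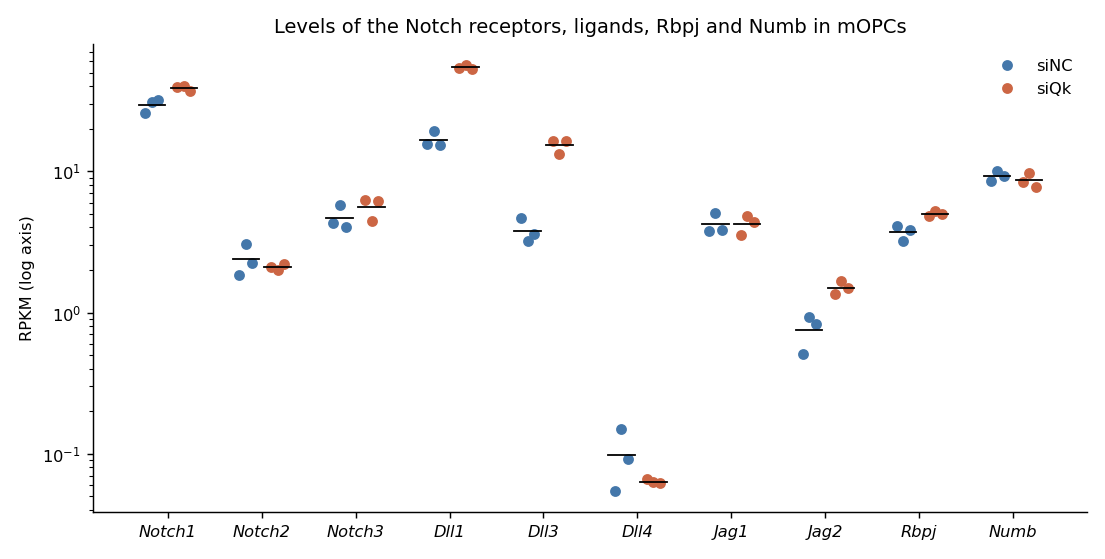
RPKM (log axis) of the 10 genes in each library, with siNC in blue, siQk in orange and a bar at the mean of 3 libraries. Dll1, Dll3 and Jag2 in siQk lie above all siNC libraries, and Dll4 stays at or below 0.149 RPKM throughout.

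Dll1 (chr17:15367354-15376872, minus strand, 2 coding transcripts in GENCODE M21) is the ligand that neural progenitors are known to present to their neighbours. Its level was 15.5, 19.3 and 15.4 RPKM in siNC replicates 1 to 3 and 53.8, 56.3 and 53.4 RPKM in siQk replicates 1 to 3, from 3092, 7325 and 6981 tags and 26019, 15974 and 23163 tags. All siQk libraries were high and close to each other, and the lowest of them was far above the highest siNC library. The means were 16.7 ± 2.21 RPKM (SD, n = 3) and 54.5 ± 1.59 RPKM (SD, n = 3), the log2 fold change was 1.55 (SE 0.10, 95% interval 1.32 to 1.78), and the FDR was 0.000396 with edgeR's quasi-likelihood test. By its P, Dll1 ranked 35 among the 12505 genes tested. Of its 4219 annotated exonic bases, 867 overlap the lincRNA gene A930024N18Rik on the opposite strand, and since the kit does not mark strand, reads from both genes cannot be told apart there. The TMM-scaled level relative to the siNC mean was 2.90, 3.00 and 2.90 in the siQk libraries, against 0.886 to 1.14 in the siNC libraries.

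Dll3 (chr7:28293553-28302238, minus strand, 1 coding transcript) had the largest fold change of the 9 tested genes. It stood at 4.64, 3.19 and 3.59 RPKM in the siNC libraries and at 16.3, 13.2 and 16.4 RPKM in the siQk libraries, from 584, 764 and 1027 tags and 4985, 2359 and 4488 tags. The groups did not overlap, and siQk replicate 2, the lowest of its group, was still well above siNC replicate 1, the highest of the other. Means were 3.81 ± 0.750 and 15.3 ± 1.84 RPKM (SD, n = 3 each), or 4.04 and 14.5 RPKM when divided by the TMM factors. The log2 fold change, which uses TMM scaling, was 1.86 (SE 0.19, 95% interval 1.40 to 2.31, FDR 0.00122 from edgeR's quasi-likelihood test). Intervals of Dll1 and Dll3 overlap, and the difference between their changes was not tested. No other annotated gene shares exonic bases with Dll3.

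Jag2 (chr12:112907819-112929776, minus strand, 2 coding transcripts), a jagged ligand with a low level in both groups, rose from 0.507, 0.926 and 0.830 RPKM in the siNC libraries to 1.34, 1.68 and 1.49 RPKM in the siQk libraries. These values rest on 130, 452 and 483 tags in siNC and 836, 611 and 829 tags in siQk. Every siQk library lay above every siNC library, and siNC replicate 1, the library with the fewest tags, was the lowest. The log2 fold change was 0.84 (SE 0.21, 95% interval 0.35 to 1.34) with P 0.00517 and FDR 0.0210 from edgeR's quasi-likelihood test. Its call was lost when siNC replicate 3, siQk replicate 2 or siQk replicate 3 was left out (log2 fold changes of 0.89, 0.77 and 0.85, FDR 0.0383, 0.0710 and 0.0558 with the same test). Thinning all libraries to the smallest also ended it, with a log2 fold change of 0.77 and P of 0.0141. Among all called genes, 416 had a log2 fold change at or above that of Jag2.

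Jag1 (chr2:137081456-137116644, minus strand, 1 coding transcript), the other jagged ligand, read 3.77, 5.09 and 3.84 RPKM in siNC and 3.54, 4.85 and 4.41 RPKM in siQk. The groups covered the same range, with the highest library of all in siNC and the lowest in siQk. The log2 fold change of -0.14 (95% interval -0.51 to 0.23, FDR 0.502 from edgeR's quasi-likelihood test) was not called, and its interval holds changes of either sign, as did the fits, since scaling by library size only gave 0.0089. Leaving out siNC replicate 2 gave -0.0011 and siQk replicate 1 -0.02, against -0.23 without siNC replicate 3 or siQk replicate 2. Dll4 (chr2:119325784-119335962, plus strand, 1 coding transcript), best known from blood vessels, was near the floor, with 11, 57 and 42 tags in the siNC libraries and 32, 18 and 27 tags in the siQk libraries. That is 0.0548, 0.149 and 0.0921 RPKM against 0.0657, 0.0631 and 0.0618 RPKM, ranges that overlap, and the gene was below the filter on low counts and was not tested. With no such filter its log2 fold change was -0.78 (SE 0.37, FDR 0.170 from edgeR's quasi-likelihood test). Of its 3852 exonic bases, 214 overlap Gm14207 on the opposite strand.

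No receptor was called changed. Notch1 (chr2:26457903-26516663, minus strand, 2 coding transcripts), the receptor with the highest level, stood at 25.9, 30.9 and 32.0 RPKM in siNC and at 39.3, 40.4 and 36.7 RPKM in siQk. All siQk libraries were above all siNC libraries, although the gap was narrow. Means were 29.6 ± 3.24 and 38.8 ± 1.87 RPKM (SD, n = 3 each), or 31.1 and 36.8 RPKM when divided by the TMM factors. The log2 fold change, which uses TMM scaling, was 0.24 (SE 0.07, 95% interval 0.07 to 0.42). With P 0.0130 and FDR 0.0389 from edgeR's quasi-likelihood test, Notch1 met the cutoff on FDR and missed that on P. It was called with DESeq2's Wald test (log2 fold change 0.23), with upper quartile scaling (0.30), with library size only (0.39), without the filter on low counts (0.27) and at an FDR below 0.05 alone. Of 14232 annotated exonic bases, 1068 overlap 0610009E02Rik and 414 overlap Gm13568, both on the opposite strand.

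Notch2 (chr3:98013527-98150361, plus strand, 1 coding transcript) had 1.84, 3.05 and 2.25 RPKM in the siNC libraries and 2.09, 1.98 and 2.22 RPKM in the siQk libraries. In RPKM the siQk libraries lay inside the range of the siNC libraries, in which replicate 2 was the highest. TMM-scaled RPKM of Notch2 was 2.05 to 3.17 in siNC and 1.86 to 2.13 in siQk, ranges that overlap only in part. Its log2 fold change was -0.33 (SE 0.17, 95% interval -0.72 to 0.06, FDR 0.156 from edgeR's quasi-likelihood test). Without siNC replicate 2 it was -0.12. Notch3 (chr17:32120820-32166852, minus strand, 2 coding transcripts), a receptor known from mural cells and neural progenitors, read 4.29, 5.75 and 4.0 RPKM in siNC and 6.22, 4.47 and 6.21 RPKM in siQk. The groups overlapped, since siQk replicate 2 fell among the siNC libraries. With a log2 fold change of 0.12 (SE 0.18, 95% interval -0.32 to 0.56, FDR 0.642 from edgeR's quasi-likelihood test), Notch3 was not called, and its sign turned when siNC replicate 3 was left out (-0.0062). It was 0.04 without siQk replicate 1 or 3, 0.28 without siNC replicate 2 and 0.27 without siQk replicate 2. Notch2 shares 541 of 10782 exonic bases with Gm42820 on its own strand, and Notch3 488 of 8089 with Gm17276 on the other.

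Rbpj and Numb act inside the cell that receives the signal. Rbpj (chr5:53466152-53657362, plus strand, 6 coding transcripts), the DNA-binding protein through which all Notch receptors act, stood at 4.09, 3.23 and 3.82 RPKM in siNC and at 4.79, 5.24 and 4.98 RPKM in siQk. Each siQk library was above each siNC library, but the log2 fold change of 0.28 (SE 0.12, 95% interval -0.0054 to 0.56) had P 0.0534 and FDR 0.108 with edgeR's quasi-likelihood test and was not called. Library size only (log2 fold change 0.43) and leaving out siNC replicate 1 (0.40) brought the call, while the value was 0.17 without siNC replicate 2. GENCODE M21 lists processed pseudogenes of Rbpj, with which the counting could have split its reads. Numb (chr12:83794034-83921934, minus strand, 9 coding transcripts), an endocytic adaptor that inhibits Notch receptors, read 8.49, 10.1 and 9.23 RPKM in siNC and 8.40, 9.79 and 7.78 RPKM in siQk. These RPKM ranges overlapped, with siQk replicate 2 between the siNC libraries, and the log2 fold change was -0.25 (SE 0.10, 95% interval -0.50 to -0.002, P 0.0486 and FDR 0.10 from edgeR's quasi-likelihood test), not called. With library size only it was -0.099. Of the 3917 exonic bases of Numb, 166 overlap Gm46367 on the opposite strand.

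**Figure D2:**
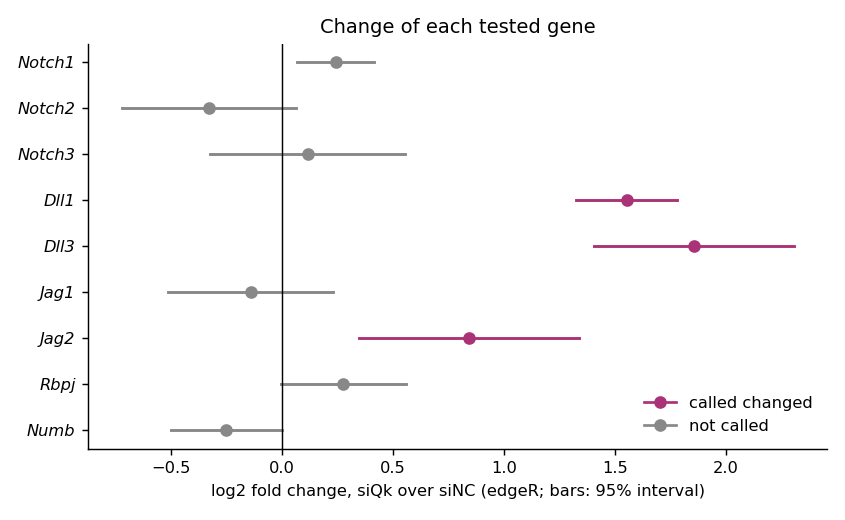
Log2 fold change, siQk over siNC, of the 9 tested genes with the 95% interval of edgeR's fit as bars, called genes in purple and others in grey. The intervals of Dll1, Dll3 and Jag2 lie wholly above 0, with Dll3 at 1.86 and Jag2 at 0.84, and those of Notch2, Notch3, Jag1 and Rbpj cross 0. Notch1 (0.07 to 0.42) also lies above 0 and Numb (-0.50 to -0.002) below it, although neither was called.

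With RPKM divided by the TMM factor of the library, the ranges of siNC and siQk did not overlap for 6 of the 9 tested genes, which were Notch1, Dll1, Dll3, Jag2, Rbpj and Numb. Among all tested genes this held for 54.4%, so that a gap between the groups was common in these data. The median log2 fold change was 0.24 over the 9 genes and 0.01 over all genes. In absolute size, the median over all genes was 0.25 and over the called genes 0.59, and 8.06% of all tested genes moved by at least 1, as Dll1 and Dll3 did.

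In order of mean RPKM, siNC mOPCs had Notch1, Dll1, Numb, Notch3, Jag1, Dll3, Rbpj, Notch2, Jag2 and Dll4. Of the neighbours in this order, Notch3 and Jag1, Jag1 and Dll3, and Dll3 and Rbpj had ranges over libraries that overlapped, and the other neighbours were separated in all libraries. In siQk the order of mean RPKM was Dll1, Notch1, Dll3, Numb, Notch3, Rbpj, Jag1, Notch2, Jag2 and Dll4, in which only Notch3 and Rbpj, and Rbpj and Jag1, overlapped. Dll1 and Notch1 thus changed places at the top. The ratio of Dll1 to Notch1 RPKM, which library scaling does not touch, was 0.599, 0.625 and 0.482 in the siNC libraries and 1.37, 1.40 and 1.45 in the siQk libraries. Dll3 moved from a level like those of Jag1 and Rbpj to one above Numb.

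The summed RPKM of the 5 ligands was 24.5, 28.6 and 23.8 in the siNC libraries and 75.1, 76.1 and 75.8 in the siQk libraries, so that the groups were far apart. The summed RPKM of the 3 receptors was 32.0, 39.7 and 38.3 in siNC and 47.6, 46.8 and 45.2 in siQk, which are also separate but close. Ligand RPKM divided by receptor RPKM was 0.764, 0.722 and 0.621 in the siNC libraries and 1.58, 1.63 and 1.68 in the siQk libraries. In words, receptor transcripts were ahead of ligand transcripts in every siNC library and behind them in every siQk library. These sums follow from the genes above and were given no test of their own.

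Within the receptors, Notch1 held 77.8% to 83.7% of the summed RPKM in siNC and 81.3% to 86.2% in siQk, ranges that overlap. Within the ligands, Dll1 held 63.3% to 67.3% in siNC and 70.5% to 74.0% in siQk. The share of Jag1, whose level was not called changed, was 15.4% to 17.8% of ligand RPKM in siNC and 4.71% to 6.38% in siQk. Dll3 made up 11.1% to 19.0% in siNC and 17.3% to 21.8% in siQk, while Jag2 stayed at or under 3.49% and Dll4 at or under 0.520% in every library.

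**Figure D3:**
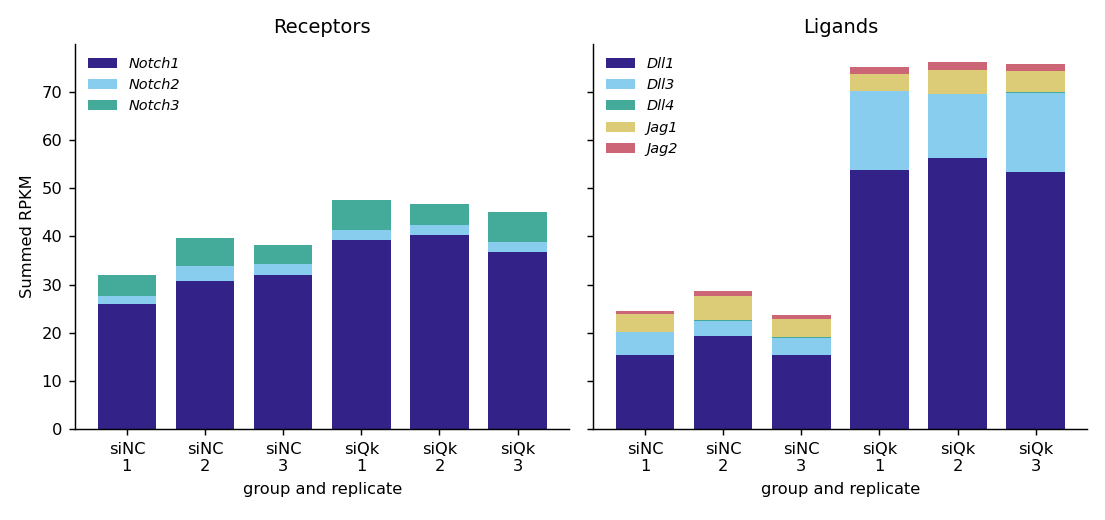
Summed RPKM of the receptors (left) and of the ligands (right) in each library, stacked by gene, on axes that start at 0. Ligand sums are 23.8 to 28.6 RPKM in siNC and 75.1 to 76.1 RPKM in siQk, mostly Dll1, and receptor sums are 32.0 to 39.7 RPKM and 45.2 to 47.6 RPKM, mostly Notch1.

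The tested genes whose profile over the 6 libraries was nearest to that of a called ligand were found by the root mean square difference in log2 CPM after centring each gene on its mean. For Dll1 they were Kit, a receptor tyrosine kinase, at 0.0617, and Nefl, the light neurofilament subunit, at 0.0803. Kit stood at 5.92, 6.80 and 5.83 RPKM in siNC and at 20.5, 22.6 and 19.2 RPKM in siQk, so that its libraries fall in the same 2 groups as those of Dll1. For Dll3 they were Cdo1, cysteine dioxygenase, at 0.142, and Naaladl1, a peptidase, at 0.203, with log2 fold changes of 1.91 and 1.88. With 3 libraries a group such likeness is mostly a like fold change, and Jag2 was below the level at which it was computed.

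Of the target genes of the pathway, Hes5, Nrarp and Myc rose. Hes5, a repressor that Notch switches on in neural and oligodendrocyte precursors, stood at 22.0, 27.2 and 19.7 RPKM in the siNC libraries and at 94.7, 91.9 and 98.6 RPKM in the siQk libraries. All siQk libraries were far above all siNC libraries. The log2 fold change was 1.90 (SE 0.13, 95% interval 1.59 to 2.20, FDR 0.000446 from edgeR's quasi-likelihood test), or 3.73-fold. Nrarp, a target whose protein feeds back on the Notch complex, read 4.99, 6.08 and 3.26 RPKM in siNC and 15.9, 14.5 and 17.5 RPKM in siQk. It was high in every siQk library, with a log2 fold change of 1.59 (SE 0.23, FDR 0.00380 from edgeR's quasi-likelihood test). Noncoding genes on the opposite strand overlap 433 of 1363 exonic bases of Hes5 (Gm20421) and 2051 of 2582 of Nrarp (Gm38287), so that for Nrarp most of the counted sequence cannot be assigned to a strand.

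Myc, a target best known from T cells, rose from a mean of 16.4 ± 2.76 RPKM in siNC to 33.5 ± 7.18 RPKM in siQk (SD, n = 3 each), with a log2 fold change of 0.88 and an FDR of 0.0108 from edgeR's quasi-likelihood test. Hes1, the other common Hes target, was not called. Its level was 3.35, 4.36 and 4.26 RPKM in siNC and 3.38, 2.93 and 3.52 RPKM in siQk, ranges that overlap. TMM-scaled RPKM of Hes1 did not overlap, at 3.73 to 4.53 in siNC and 2.75 to 3.38 in siQk. The log2 fold change was -0.43 (95% interval -0.75 to -0.11, P 0.0164, FDR 0.0459 from edgeR's quasi-likelihood test). Hey1 had means of 31.3 ± 6.92 and 31.0 ± 0.439 RPKM (SD, n = 3 each) and a log2 fold change of -0.16 (95% interval -0.48 to 0.15), which was -0.28 without siNC replicate 1 and -0.0040 without siNC replicate 2. For Hey2 the means were 4.27 ± 0.0638 and 4.06 ± 0.749 RPKM (SD, n = 3 each), and the log2 fold change was -0.22 (95% interval -0.57 to 0.12), or -0.12 without siQk replicate 1 and -0.39 without siQk replicate 3. The intervals of Hes1, Hey1 and Hey2 hold no rise as large as that of Hes5 or Nrarp. In all, 3 of 7 tested targets were called higher and 0 lower with edgeR (P below 0.05: 1 lower, Hes1; DESeq2's Wald test also called Hes1 lower), and Heyl was under the filter. Among all tested genes, edgeR called 13.8% higher and 17.2% lower.

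**Figure D4:**
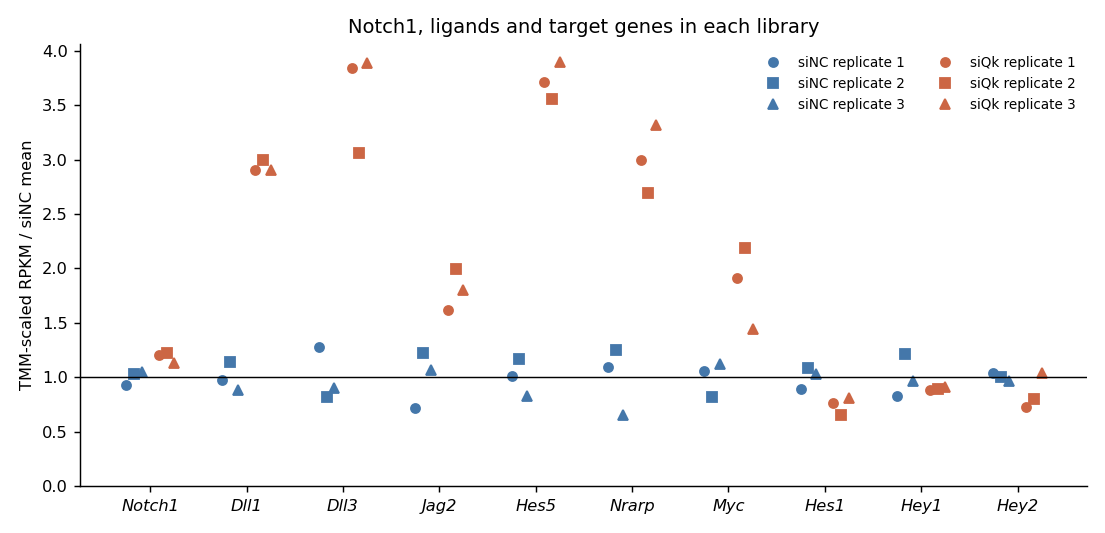
TMM-scaled RPKM divided by the siNC mean of the same gene, for Notch1, the called ligands and 6 target genes, with 1 point per library, siNC in blue and siQk in orange, and marker shapes for replicates. Dll1, Dll3, Jag2, Hes5, Nrarp and Myc have every siQk library above every siNC library, with Dll1 at 2.90 to 3.00, while the siQk libraries of Hes1 lie at 0.657 to 0.806.

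The other genes of the pathway, 67 in 8 lists of which 63 could be tested, were called in 31.7% of cases (14 higher and 6 lower), beside 31.0% of all tested genes. The median log2 fold change over these 63 genes was 0.09. Scaling by library size only, which moved the median of all genes from 0.01 to 0.16, gave 22 higher and 3 lower. Among other receptor and ligand genes, 1 of 4 tested was called, Dner, a ligand-like protein of neurons and glia, from 11.8 ± 1.95 RPKM in siNC to 23.0 ± 3.66 RPKM in siQk (log2 fold change 0.82, FDR 0.00623 from edgeR's quasi-likelihood test). Notch4, the remaining receptor gene, was under the filter at 0.108 to 0.178 RPKM in all libraries. None of the 5 genes for glycosylation of the receptors and none of the 4 for endocytosis of the ligands was called by edgeR, although at P below 0.05 there was 1 in each list, higher in both, and DESeq2's Wald test called 1 of the endocytosis genes and 0 of the others.

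Of the 10 cleavage genes, 3 were called lower and 1 higher. Adam17, a protease that can cleave Notch receptors besides its main role in shedding TNF, fell from 25.4, 28.4 and 26.5 RPKM in siNC to 12.2, 17.9 and 15.4 RPKM in siQk, with every siQk library below every siNC library (log2 fold change -0.97, SE 0.13, FDR 0.00294 from edgeR's quasi-likelihood test). Adam10, the main protease of ligand-bound Notch, is outside the naming rule and was added after its values were seen. It had the log2 fold change -0.40 (FDR 0.0305 with the same test). Its RPKM ranges overlapped, while its TMM-scaled ranges did not, at 66.9 to 83.8 in siNC and 52.5 to 63.3 in siQk. The call of Adam10 was lost in 9 of 16 alternatives. The gamma-secretase subunit genes Aph1a and Aph1c had log2 fold changes of -0.49 and 0.55 (FDR 0.0198 and 0.0219 from edgeR's quasi-likelihood test), and each of these calls was lost in 7 of 16 alternatives, among them the replicate block and, for Aph1a, 4 and, for Aph1c, 5 of 6 fits without 1 library. Aph1a had the higher level of this pair, 11.6 RPKM in siNC against 0.462 RPKM for Aph1c, whose reads could be split with the near-identical Aph1b.

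Of 13 tested genes for turnover and trafficking of the receptor, 2 were called higher and 1 lower. The called genes were Lnx1 and Lnx2, ubiquitin ligases that target Numb, at log2 fold changes of 0.68 and 0.61, and Cbl, a ubiquitin ligase of many receptors, at -0.75 (FDR 0.0103, 0.00655 and 0.00774 from edgeR's quasi-likelihood test). Lnx1 went from 3.52 to 6.23 RPKM, Lnx2 from 2.37 to 4.01 RPKM and Cbl from 14.2 to 9.37 RPKM in the means of 3 libraries. For all of them the groups did not overlap.

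Nuclear partners were the next group. Of 8 coactivator genes 2 were called higher, Maml2, a Mastermind protein, and Kat2a, a histone acetyltransferase, with log2 fold changes of 0.55 and 0.40, and 1 lower, Kat2b, the paralog of Kat2a, with -0.59 (FDR 0.00603, 0.00752 and 0.0250 from edgeR's quasi-likelihood test). The call of Kat2b was lost in 8 of 16 alternatives, 5 of them fits without 1 library. Of 12 corepressor genes 5 were called higher and 1 lower. The 3 with the smallest P were Fhl1, whose short isoform binds Rbpj, Tle3, a Groucho corepressor, and Hdac2, a histone deacetylase. Fhl1 fell from 58.5 ± 5.58 RPKM to 27.9 ± 1.91 RPKM (SD, n = 3 each), without distinction of its isoforms. With TMM scaling its log2 fold change was -1.22 (FDR 0.000381 from edgeR's quasi-likelihood test). Tle3 rose from 7.70 ± 0.574 RPKM to 17.5 ± 2.06 RPKM, and Hdac2 from 79.9 to 120.3 RPKM. Log2 fold changes of Tle3 and Hdac2 with TMM scaling were 1.03 and 0.44 (FDR 0.000903 and 0.00446 from edgeR's quasi-likelihood test).

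**Figure D5:**
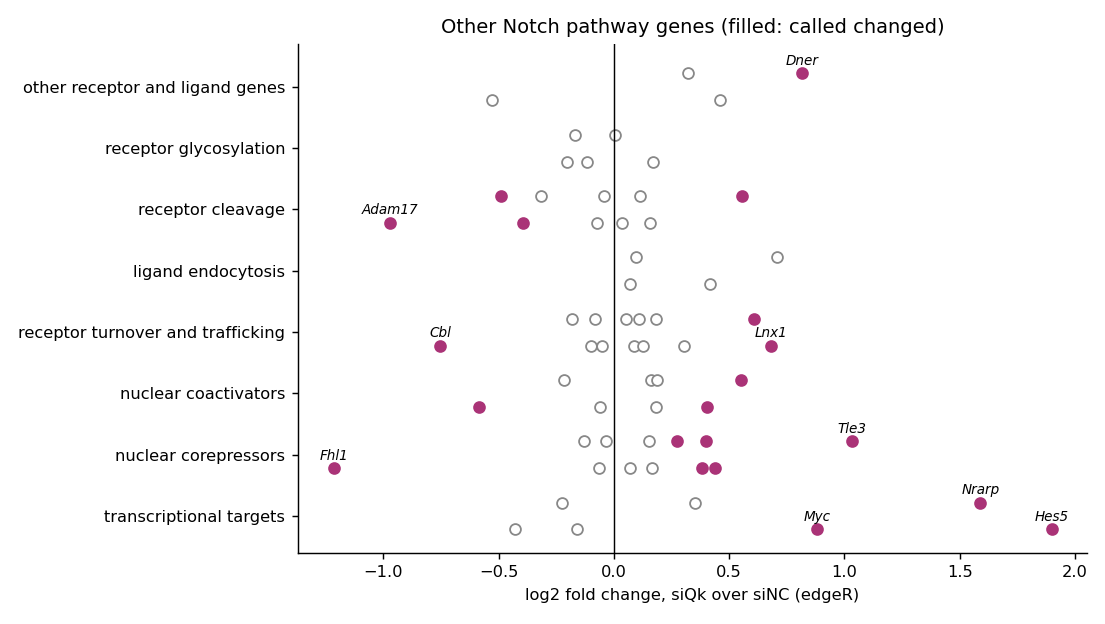
Log2 fold change, siQk over siNC, of the 63 tested genes in 8 lists of other pathway genes, with called genes filled and others open, and points shifted up or down only for legibility. Hes5 at 1.90 and Nrarp at 1.59 lie furthest to the right, and Fhl1 at -1.22 and Adam17 at -0.97 furthest to the left.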

How the data were processed

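mRNA was measured in 3 siNC and 3 siQk libraries of mOPCs, grouped by the siRNA named in the labels, while the 72 h come from the paper's text. The authors prepared polyadenylated RNA with a kit that does not mark strand, sequenced paired ends, used OLego for alignment to mm10 and Quantas for the quantification. Versions of both and the gene annotation are not given in the sources used here. The deposited tables hold, for each gene, an estimated count of tags, which is not normalized and carried decimals for 23.1% to 26.2% of genes per library, beside the exon length. The deposited RPKM equals that count scaled by exon length and library total, as recomputing showed (largest relative gap 3.27e-13). RPKM carries no factor for composition, and the TMM factors were 0.899 to 0.987 in siNC and 1.04 to 1.07 in siQk.

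Expected counts were rounded and tested in R 4.3.3 with edgeR 4.0.16 and limma 3.58.1, by a quasi-likelihood test on the group alone, with TMM factors and Benjamini-Hochberg adjustment over 12505 genes. Dividing the size of the log2 fold change by the root of F gave the SE, and 95% intervals use the moderated degrees of freedom. Replicates were compared first (chi-square per degree of freedom 36.3 or more), so that each library counts once. p-values measure the spread between these libraries. In libraries simulated from this comparison, with 199 of 12516 genes changed by 1 on the log2 scale, 96.5% of the changed genes were called and 8.57% of the calls were unchanged genes. The simulated counts had the same dispersion for every gene and fewer changed genes than were called here. These shares therefore do not carry over to the real calls. Positions are from GENCODE M21 on GRCm38, the assembly of mm10, and sequences from RefSeq on GRCm38.p6.

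The genes described, the pathway and marker lists and the tests were chosen with earlier results of these data known. Named genes are Qk, the 10 genes, the 3 called genes of smallest P in each pathway list, Hes1, Hes5, Hey1 and Hey2, the highest and lowest gene of each marker list by mean RPKM, and, for each called gene with logCPM over 3, the 2 tested genes with the nearest profile. A gene that this rule gives is not reported here. Alternatives were DESeq2 1.42.0, other scalings, filters and cutoffs, thinning, the replicate number as a block, and each library left out in turn. Isoforms and exons were not analysed here.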

Additional observations from a re-analysis of the deposited data

How the results depend on the processing

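Over 16 alternatives, the calls of Dll1 (log2 fold change 1.47 to 1.70), Dll3 (1.73 to 2.06) and Qk (-2.29 to -1.76) held in all, as did those of Hes5 (1.78 to 2.05) and Nrarp (1.36 to 1.79). Of the 320 values of 20 named pathway genes, 278 kept direction and side of the threshold, 40 lost the call, 2 gained it and none changed sign. Among all 63 tested pathway genes, 13 changed sign under some alternative, none of them called, with an absolute log2 fold change of at most 0.13. Requiring an FDR below 0.05 and a log2 fold change of at least 1 left 946 changed genes (326 higher, 620 lower), 4 pathway genes (3 higher, 1 lower) and no call for Jag2 (0.84). Scaling by library size only gave 2989 higher and 1365 lower genes (31.4% lower, against 55.4% with TMM and 44.4% with upper quartile factors), 5 of the 10 genes (5 higher), 22 higher and 3 lower pathway genes, calls for Notch1 (0.39) and Rbpj (0.43) and the other sign for Jag1 (0.0089). Notch1 was also called with DESeq2 (0.23), upper quartile factors (0.30), no filter (0.27) and an FDR below 0.05 alone (0.24), and thinning ended the call of Jag2 (0.77); the cause was not tested. Divided by TMM factors, mean RPKM in siQk was 36.8 for Notch1, 51.7 for Dll1, 0.0603 for Dll4 and 4.75 for Rbpj. Leaving out 1 library gave 2478 to 3704 changed genes (lowest without siQk replicate 1), 1008 to 1610 higher (1008 without siQk replicate 1, 1104 without replicate 2) and 1470 to 2094 lower, 2 to 4 of the 10 genes, 13 to 19 pathway genes (13 without siQk replicate 2), 10 to 14 higher and 3 to 5 lower, and log2 fold changes of 0.66 to 1.0 for Jag2, -0.45 to -0.12 for Notch2, -0.0062 to 0.28 for Notch3, -0.23 to -0.0011 for Jag1, -0.28 to -0.0040 for Hey1, -0.39 to -0.12 for Hey2 and 0.17 to 0.40 for Rbpj. In each such fit the group of 2 has fewer libraries. Replicate numbers gave no pairing of libraries (correlations of deviations -0.0528, -0.152 and -0.34), and the replicate block left 2796 changed genes, 2701 of them called without it, and 3 of the 10 genes called. DESeq2 called 4894 genes and no filter 4500. Depth limits Dll4, with 11 to 57 tags.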
